A study of Mus musculus with 12 samples.

Results

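Fat absorption was followed here through 10 genes measured by RNA sequencing in the proximal ileal epithelium of mice given TCDD. The genes are Cd36, Fabp1, Fabp2, Mogat2, Dgat1, Mttp, Apob, Apoa1, Apoa4 and Apoc3. They were chosen by name for their known part in taking up dietary fat and packing it into chylomicrons, at a time when earlier results of these data were known. All 10 passed the filter on low counts, as did 15823 of the 46078 genes in the files.

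Male C57BL/6 mice received sesame oil alone (vehicle), or sesame oil carrying 3, 10 or 30 µg/kg TCDD, by a gavage repeated each 4 days over 28 days. TCDD is a persistent chlorinated dioxin and a ligand of the aryl hydrocarbon receptor (AhR), a transcription factor. The mice were 28 days old at the start and 56 days old at the end, and no engineered allele is named for them. Each group held 3 libraries, 12 in all, made from epithelium scraped off the intestine, so other cells of the gut wall could be present. In such bulk samples, fewer cells of a type and less RNA per cell cannot be told apart.

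Dietary triacylglycerol is split in the gut lumen, and its fatty acids and monoacylglycerol enter enterocytes, where membrane and cytosolic proteins bind the fatty acids. The endoplasmic reticulum joins them again into triacylglycerol, which the microsomal transfer protein loads onto apolipoprotein B. The particle gains further apolipoproteins and leaves the cell toward the lymph as a chylomicron. These steps are busiest in the upper small intestine, while recovery of bile acids belongs to the ileum.

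The libraries held between 11695887 and 22180274 counts assigned to genes. Levels are given as CPM (counts scaled to a common library size) after scaling by trimmed mean of M values (TMM), and changes as log2 differences between group means. A gene was called at an adjusted p under 0.05 and a change of at least 1.5-fold, with p-values from edgeR's quasi-likelihood test adjusted by the Benjamini-Hochberg method over the 15823 genes. The dosing check was Cyp1a1, the classic AhR target, which was 23.0 CPM ± 4.28 (SD, n = 3) in vehicle, 77.4 ± 60.0 at 3, 1075 ± 235 at 10 and 2982 ± 334 at 30 µg/kg. It was called at 10 and 30 µg/kg, but at 3 µg/kg it overlapped with vehicle and was not called (edgeR adjusted p = 0.208).

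Enterocyte markers were high in every library, but Fabp6 and Slc10a2, defining markers of the ileum, were low outside the 3 µg/kg group. The summed level of 7 enterocyte markers was between 23799 and 41108 CPM over the 12 libraries, with overlap among all groups. Each 3 µg/kg library had between 390 and 556 counts of Fabp6, the ileal bile acid binding protein, but the other 9 had no more than 5 each. Slc10a2, the ileal bile acid transporter, ran from 5.46 to 16.5 CPM at 3 µg/kg and was no higher than 2.68 CPM elsewhere. The whole list of 6 ileal markers did not follow that order, with sums of 1451 to 1776 CPM in vehicle, 704 to 2097 at 3, 457 to 951 at 10 and 607 to 750 at 30 µg/kg. Cubn, the receptor for cobalamin bound to intrinsic factor, made up 1109.5 to 1452 CPM of the vehicle sums. None of the 6 was called at 30 µg/kg, although all sums of that group lay below those of vehicle. Cubn differed there from vehicle by -2.08 ± 0.60 on the log2 scale and missed the p threshold in edgeR's test (0.0622 after adjustment). By contrast, Lct (lactase, an upper intestinal enzyme) stood between 2080 and 3831 CPM over the 12 libraries. Lct is 1 of 6 markers of the proximal small intestine. Their sums were 4897 to 5342 CPM in vehicle, 3466 to 6013 at 3, 4209 to 4472 at 10 and 4507 to 5763 at 30 µg/kg. Slc40a1 alone of these 6 was called at 30 µg/kg, where it was lower than in vehicle (-1.06 on the log2 scale). Lct (-0.40) and Rbp2 (0.64) moved in opposite directions there without a call. Pancreatic acinar transcripts were lower at every dose than in vehicle, where the 6 markers summed to 5.47 to 6.76 CPM, against 0.226 to 0.352 at 3, 1.89 to 2.20 at 10 and 0.383 to 1.24 at 30 µg/kg, and all 3 that were tested were called lower at 30 µg/kg. The comparisons below carry these differences in regional and acinar markers, and their part in the results was not tested.

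The 30 µg/kg libraries also held more of the Paneth cell markers and of some goblet cell markers. The 6 Paneth cell markers summed to between 662 and 1003 CPM in vehicle, 674 and 1694 at 3, 1053 and 1434 at 10, and 2077 and 2797 at 30 µg/kg, where 5 of the 6 were called higher. The 6 goblet cell markers summed to 12691 to 16605 CPM in vehicle and 16240 to 17699 at 30 µg/kg, which overlapped, and 3 of them (Tff3, Agr2 and Zg16) were called higher. Muc2 (0.26 on the log2 scale), Fcgbp (0.07) and Clca1 (0.03) were not called. The Paneth and goblet calls were made without the correction for gene length and GC content used below. The 6 crypt and proliferation markers summed to 279 to 299 CPM in vehicle and 212 to 499 at 3 µg/kg. They summed to 373 to 512 CPM at 10 and 369 to 497 at 30 µg/kg, and none was called at 30 µg/kg. Lgr5 changed there by -0.56 on the log2 scale, while Olfm4 (0.86), Mki67 (0.54), Pcna (0.52), Top2a (0.49) and Ascl2 (0.37) were positive. The part of secretory and crypt cells in the changes at 10 and 30 µg/kg was not tested.

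To show where the transcripts start, the 250 bases before the RefSeq start (build GRCm38.p6) are printed for 4 members: Cd36, the member called against vehicle; Mttp, the one with a match to the AhR binding motif; and Apoa1 and Apoa4, neighbours whose ratio differed at 30 µg/kg. Sequences run 5′ to 3′ on the gene's own strand, and capitals mark the core of the dioxin response element (DRE), searched as GCGTG on both strands and present in Mttp in its reverse form CACGC.

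Cd36, chr5:17835897-17836146, minus strand: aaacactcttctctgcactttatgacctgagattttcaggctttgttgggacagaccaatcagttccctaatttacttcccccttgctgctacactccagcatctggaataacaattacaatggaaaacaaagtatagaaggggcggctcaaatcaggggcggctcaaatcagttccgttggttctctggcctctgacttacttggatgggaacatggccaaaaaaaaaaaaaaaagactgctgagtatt
Mttp, chr3:138143419-138143668, minus strand: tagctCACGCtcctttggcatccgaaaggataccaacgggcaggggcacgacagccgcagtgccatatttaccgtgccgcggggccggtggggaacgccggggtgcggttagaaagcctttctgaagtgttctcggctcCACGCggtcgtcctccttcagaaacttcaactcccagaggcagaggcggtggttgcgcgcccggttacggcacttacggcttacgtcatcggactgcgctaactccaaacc
Apoa1, chr9:46228380-46228629, plus strand: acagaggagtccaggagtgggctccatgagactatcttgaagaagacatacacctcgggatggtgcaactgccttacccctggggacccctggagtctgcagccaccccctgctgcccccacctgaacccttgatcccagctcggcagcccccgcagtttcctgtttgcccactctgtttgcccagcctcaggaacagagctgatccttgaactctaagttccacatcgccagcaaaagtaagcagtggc
Apoa4, chr9:46240594-46240843, plus strand: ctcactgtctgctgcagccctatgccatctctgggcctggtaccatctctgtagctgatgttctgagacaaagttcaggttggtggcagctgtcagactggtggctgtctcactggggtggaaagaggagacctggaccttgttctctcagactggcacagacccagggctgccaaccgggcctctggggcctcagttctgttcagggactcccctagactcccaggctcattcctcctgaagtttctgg

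Windows of 300 bases, from 250 before to 50 after the start, were found for 7 of the 10 members (Mogat2, Dgat1 and Apoc3 had no entry). The DRE core occurred in 1 of the 7, Mttp, at positions -245 and -111 from the start, and in 32.4% of all 32851 RefSeq promoter windows. A TATA box (TATAAA) lay at -30 in Fabp1 and at -60 in Apob, against 13.6% of all windows. A CCAAT box was found in Cd36 at -195 and in Fabp2 at -70, against 37.4% of all windows. The DR1 motif, a direct repeat bound by several nuclear receptors, was found in none of the 7 and in 0.0396% of all windows. These are matches of letters, not measured binding, and the Cd36 start used by RefSeq lies inside the longer GENCODE gene (chromosome 5, 17781690 to 17888801). The RefSeq start of Mttp, from which the DRE positions are counted, also lies inside its GENCODE gene (chromosome 3, 138089854 to 138144968). The RefSeq starts of Apoa1 and Apoa4 lie inside their GENCODE genes too.

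The genes spanned a wide range of levels. Per kilobase of exon, Apoa1 was highest in vehicle at 4831 ± 388 CPM per kb (SD, n = 3) and Cd36 lowest at 24.4 ± 6.93, a 198-fold range. The order between them was Apoa4, Fabp2, Fabp1, Apob, Mttp, Apoc3, Dgat1 and Mogat2. Neighbours whose vehicle libraries overlapped on this scale were Apoa4 with Fabp2, Fabp1 with Apob, and Mttp with Apoc3, while the remaining neighbours did not overlap. At 30 µg/kg the order was the same except that Fabp2 stood above Apoa4, and those ranges overlapped there. Cd36 rose in that group to 45.3 ± 7.54 CPM per kb, which reduced the range to 135-fold.

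Few members were called. The 3 comparisons with vehicle share the same vehicle libraries. At 3 µg/kg none of the 10 was called, against 0.228% of all genes, and 1 had an unadjusted p under 0.05 (Apoc3), against 11.4% of all genes. At 10 µg/kg none was called against 0.613% of all genes, and again 1 had an unadjusted p under 0.05 (Apoc3), against 15.9%; DESeq2 called none at 3 µg/kg and 1, Apoc3, at 10 µg/kg. At 30 µg/kg 1 was called, Cd36, against 3.97% of all genes. The trend over dose rank also called Cd36 alone of the 10, against 3.29% of all genes. The median log2 change of the 10 was 0.06 at 3, 0.04 at 10 and 0.03 at 30 µg/kg, and that of all genes tested was 0.00, -0.01 and -0.02.

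**Figure D1:**
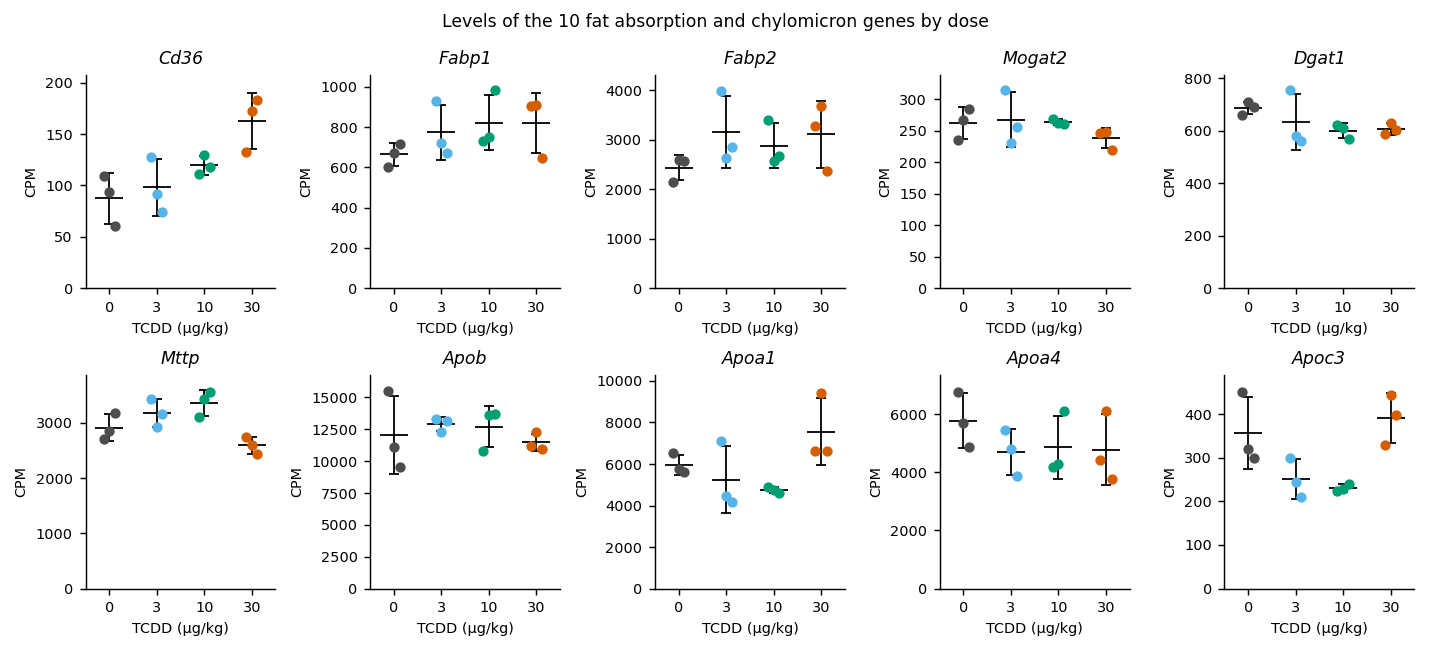
Each panel plots the CPM of 1 gene (vertical axis, from 0) against TCDD dose in µg/kg (horizontal axis, 0 is vehicle), with 1 point per library and the mean ± SD of 3 libraries in black. Cd36 climbed from 87.6 CPM in vehicle to 163 at 30 µg/kg, Apoc3 dipped at 3 and 10 µg/kg, and the 4 groups of Mogat2 lay between 220 and 316 CPM.

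**Figure D2:**
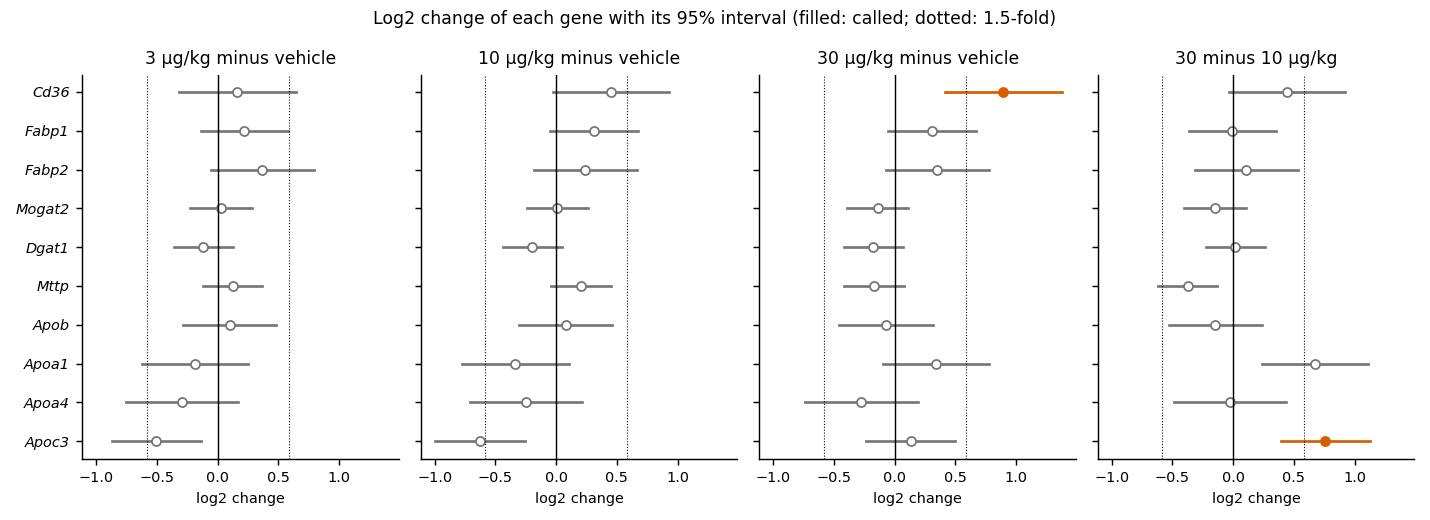
Points give the log2 change of each gene and bars its 95% interval in 4 comparisons, with filled orange points for called genes and dotted lines at 1.5-fold. The called points are Cd36 at 30 µg/kg against vehicle (0.89) and Apoc3 at 30 against 10 µg/kg (0.76).

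Cd36 (ENSMUSG00000002944) encodes a scavenger receptor that binds long-chain fatty acids at the cell surface, in enterocytes and also in macrophages, endothelium and fat cells. Its level was 109, 93.7 and 60.2 CPM in the vehicle libraries, 128, 92.0 and 74.2 at 3, 111, 130 and 118 at 10, and 132, 172 and 184 at 30 µg/kg. All libraries of 10 and of 30 µg/kg lay above every vehicle library, while 3 µg/kg overlapped with vehicle. The log2 change against vehicle was 0.16 ± 0.22 (SE) at 3, 0.45 ± 0.22 at 10 and 0.89 ± 0.22 at 30 µg/kg, with edgeR adjusted p-values of 0.825, 0.339 and 0.0343. The increase at 30 µg/kg was 1.86-fold, and the trend gave a log2 change of 0.89 ± 0.20 over the whole dose range (adjusted p = 0.0204).

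The call for Cd36 at 30 µg/kg rested on a few libraries. It was lost on leaving out vehicle replicate 2 (adjusted p = 0.0824) or 3 (0.0985), or 30 µg/kg replicate 2 (0.0915) or 3 (0.111), although the log2 change stayed between 0.68 and 1.09 over the 12 fits that each left out 1 library. The trend call was lost without replicate 2 (adjusted p = 0.0609) or 3 (0.0859) of 30 µg/kg. With the trend of counts on gene length and GC content removed, the change at 30 µg/kg was 0.95 ± 0.23 and kept its call (adjusted p = 0.0355).

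Markers of other Cd36-bearing cells moved unevenly beside it. The 6 macrophage markers summed to between 45.2 and 56.3 CPM in vehicle, 31.5 and 41.3 at 3, 33.6 and 51.4 at 10, and from 66.3 to 71.8 at 30 µg/kg, with none of the 6 called and none at 0 throughout a group. The 6 endothelial markers summed to 17.4 to 34.8 CPM in vehicle, which overlapped with the 27.2 to 29.1 CPM of 30 µg/kg, and none of the 5 tested was called. The defining fat cell markers Adipoq and Plin1 were at no more than 1.62 CPM in any library, and the 6 adipocyte markers together (44.3 to 65.1 CPM at 30 µg/kg, 46.6 to 68.6 in vehicle) consisted almost wholly of Cidec, which enterocytes also express. The part of macrophages and endothelium in the Cd36 increase was not tested.

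The cytosolic fatty acid binding proteins carry fatty acids from the brush border to the endoplasmic reticulum, Fabp1 being the form shared with liver and Fabp2 the intestinal form. Fabp1 (ENSMUSG00000054422) stood at 602, 671 and 718 CPM in vehicle, 929, 721 and 672 at 3, 733, 752 and 982 at 10, and 902, 908 and 648 at 30 µg/kg. Only the 10 µg/kg libraries all lay above vehicle. The log2 changes were 0.22 ± 0.17, 0.31 ± 0.17 and 0.30 ± 0.17 at the 3 doses, with edgeR adjusted p-values of 0.647, 0.384 and 0.315.

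Fabp2 (ENSMUSG00000023057) stood at 2151, 2594 and 2563 CPM in vehicle, 3978, 2621 and 2842 at 3, 3400, 2577 and 2662 at 10, and 3270, 3686 and 2356 at 30 µg/kg. The libraries of 3 µg/kg were all above vehicle by a narrow margin, and the higher doses overlapped with it. The log2 changes were 0.37 ± 0.20, 0.24 ± 0.20 and 0.35 ± 0.20, with edgeR adjusted p-values of 0.498, 0.573 and 0.324. Both binding proteins had positive changes at every dose and none was called, and the intervals at 30 µg/kg (-0.06 to 0.67 for Fabp1, -0.07 to 0.77 for Fabp2) reached beyond 1.5-fold on the upper side. With the trend on gene length and GC content removed, the Fabp1 change at 30 µg/kg fell to 0.08. That of Fabp2 lay between 0.20 and 0.35 over the 11 other settings described at the end. Fabp1 and the apolipoproteins are also liver products, and the 6 hepatocyte markers summed to no more than 2.68 CPM in any library.

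Mogat2 and Dgat1 encode successive enzymes of triacylglycerol synthesis, the first adding a fatty acid to monoacylglycerol and the second completing triacylglycerol. Mogat2 (ENSMUSG00000052396) stood at 235, 268 and 284 CPM in vehicle, 316, 230 and 257 at 3, 270, 262 and 261 at 10, and 246, 249 and 220 at 30 µg/kg. Its 4 groups overlapped apart from 30 against 10 µg/kg, where all 3 libraries were lower. Dgat1 (ENSMUSG00000022555) stood at 662, 708 and 692 CPM in vehicle, 756, 580 and 562 at 3, 623, 611 and 568 at 10, and 587, 631 and 605 at 30 µg/kg. The 10 and 30 µg/kg libraries were all below vehicle, by little. At 30 µg/kg the log2 changes were -0.14 ± 0.12 for Mogat2 and -0.18 ± 0.11 for Dgat1, with edgeR adjusted p-values of 0.524 and 0.389, and their intervals (-0.39 to 0.11 and -0.42 to 0.07) lay within 1.5-fold. Dgat1 and Mogat2 had the smallest spread of the 10 over the 12 libraries, with an SD of log2 CPM of 0.14 each.

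Mttp, the microsomal triglyceride transfer protein, and Apob, the structural protein of the particle, carry out chylomicron assembly. Mttp (ENSMUSG00000028158) stood at 2709, 2847 and 3177 CPM in vehicle, 3432, 2919 and 3164 at 3, 3099, 3423 and 3551 at 10, and 2734, 2597 and 2439 at 30 µg/kg. All 30 µg/kg libraries lay below all 10 µg/kg libraries, and each dose overlapped with vehicle. The log2 changes against vehicle were 0.12 ± 0.11, 0.21 ± 0.11 and -0.17 ± 0.11 (edgeR adjusted p = 0.712, 0.389 and 0.419), and the difference between 30 and 10 µg/kg was -0.37 ± 0.11 (adjusted p = 0.0801).

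Apob (ENSMUSG00000020609) was the most counted of the 10, at 15501, 11145 and 9520 CPM in vehicle, 13328, 12293 and 13176 at 3, 10819, 13616 and 13723 at 10, and 11207, 12259 and 10971 at 30 µg/kg. Vehicle spanned the values of every dosed library. The log2 changes were 0.10, 0.08 and -0.07, each ± 0.18, and the 3 intervals lay within 1.5-fold. At 30 µg/kg the interval was within 1.5-fold for 5 of the 10 members (Mogat2, Dgat1, Mttp, Apob and Apoc3), against 41.6% of all genes.

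Apoa1, Apoc3 and Apoa4 lie within 14880 bases of chromosome 9 (46228580 to 46243459, GRCm38), with Apoc3 on the minus strand between the other two. Apoa1 and Apoa4 are exchangeable apolipoproteins that coat the particle and activate cholesterol esterification, and Apoc3 restrains its lipolysis and clearance. Apoc3 (ENSMUSG00000032081) stood at 450, 319 and 299 CPM in vehicle, 300, 244 and 209 at 3, 224, 228 and 240 at 10, and 330, 444 and 398 at 30 µg/kg. The 10 µg/kg libraries were all below vehicle and all below 30 µg/kg, and 30 µg/kg overlapped with vehicle. The log2 change was -0.50 ± 0.17 at 3, -0.63 ± 0.17 at 10 and 0.13 ± 0.17 at 30 µg/kg, with edgeR adjusted p-values of 0.30, 0.117 and 0.70.

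Between 10 and 30 µg/kg Apoc3 rose by 0.76 ± 0.17 on the log2 scale, 1.69-fold (edgeR adjusted p = 0.0252). It was the 1 member called in this comparison, against 2.77% of all genes, and 5 of the 10 had groups that did not overlap (Cd36, Apoa1 and Apoc3 higher, Mogat2 and Mttp lower), against 28.2% of all genes. The same step gave 0.67 ± 0.20 for Apoa1 (adjusted p = 0.0783) and -0.03 ± 0.21 for Apoa4 (adjusted p = 0.961). With the trend on gene length and GC content removed, the step of Apoc3 was 0.49 ± 0.16 and lost its call (adjusted p = 0.130), and that of Apoa1 was 0.42 ± 0.20 (adjusted p = 0.298). The call of Apoc3 was also lost in each of 5 fits that left out replicate 1, 2 or 3 of 10 µg/kg or replicate 2 or 3 of 30 µg/kg, with adjusted p-values between 0.0691 and 0.107. Between 3 and 10 µg/kg none of the 10 was called, against 0.158% of all genes, none had an unadjusted p under 0.05 (3.3% of all genes), and DESeq2 called none.

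Apoa1 (ENSMUSG00000032083) stood at 6517, 5777 and 5621 CPM in vehicle, 7128, 4466 and 4160 at 3, 4879, 4742 and 4581 at 10, and 6618, 9423 and 6629 at 30 µg/kg. All 10 µg/kg libraries were below vehicle and all 30 µg/kg libraries above it, with the lowest of 30 µg/kg close to the highest of vehicle. The log2 changes were -0.19, -0.34 and 0.34, each ± 0.20, with edgeR adjusted p-values of 0.768, 0.430 and 0.356. Apoa4 (ENSMUSG00000032080) stood at 6781, 5686 and 4877 CPM in vehicle, 5456, 4811 and 3880 at 3, 4197, 4291 and 6124 at 10, and 4436, 6128 and 3779 at 30 µg/kg. Its groups overlapped throughout, and the log2 changes were -0.29, -0.25 and -0.27, each ± 0.21 (adjusted p = 0.632, 0.598 and 0.493).

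The balance within this gene cluster differed at the highest dose. The ratio of Apoa1 to Apoa4, which does not depend on how libraries are scaled, was 0.961, 1.02 and 1.15 in vehicle, 1.31, 0.928 and 1.07 at 3, 1.16, 1.11 and 0.748 at 10, and 1.49, 1.54 and 1.75 at 30 µg/kg. All 3 libraries of 30 µg/kg lay above the other 9. The ratio of Apoc3 to Apoa4 ran from 0.0724 to 0.105 at 30 µg/kg, above the 0.0392 to 0.0664 of the other 9 libraries. These ratios were looked at after the values were seen and carry no test. The fitted log2 difference between Apoa1 and Apoa4 in their change at 30 µg/kg against vehicle was 0.61, and 0.54 once length and GC were corrected for. For Apoc3 and Apoa4 it was 0.41, and 0.31 after that step.

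**Figure D3:**
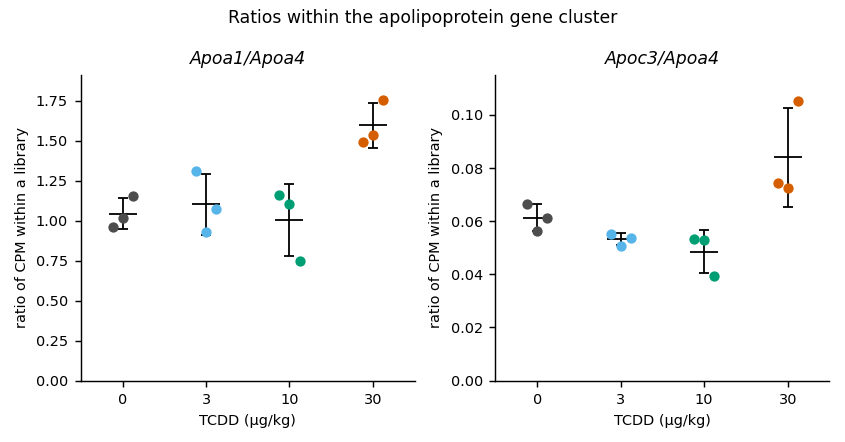
Panels plot the ratio of CPM within each library (vertical axis, from 0) for Apoa1 over Apoa4 and Apoc3 over Apoa4 against TCDD dose in µg/kg, with mean ± SD of 3 libraries in black. The 30 µg/kg libraries, at 1.49 to 1.75 and 0.0724 to 0.105, lie above all 9 others.

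Groups that did not overlap were also counted against vehicle. At 3 µg/kg they were found for 1 of the 10 members, against 15.4% of all genes. The count was 5 for 10 µg/kg, against 22.9%, and 3 for the highest dose, against 26.8%. At 10 µg/kg Cd36 and Fabp1 were higher and Dgat1, Apoa1 and Apoc3 lower, and at 30 µg/kg Cd36 and Apoa1 were higher and Dgat1 lower.

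A circadian difference among libraries ran across the doses, and the share of members with a slope on it was near that of all genes. A score over 12 clock genes (the mean of each gene's deviation in SD units, positive where Dbp, Per and Rev-erb genes were high and Arntl low) was between 0.56 and 1.10 in 6 libraries and between -1.18 and -0.41 in the other 6. Positive scores were not balanced over dose. They were found in vehicle replicates 2 and 3, the first replicate of both 3 and 10 µg/kg, and 30 µg/kg replicates 1 and 2. Summed enterocyte markers split the same way, with 33064 to 41108 CPM in the positive libraries and 23799 to 27531 CPM in the negative ones. Clock score and enterocyte marker level could therefore not be told apart, and the part of each in the slopes on the score was not tested. In a fit with the score beside dose, chosen after the data were seen, Fabp2 had a slope of 0.22 ± 0.05 log2 per unit of score (edgeR adjusted p = 0.00746), the 1 member of 10 under 0.05, against 10.7% of all genes. Fabp2 was higher in the positive than in the negative libraries of each of the 4 groups. Mogat2 was too, with a slope of 0.11 ± 0.04 (adjusted p = 0.0678), whereas Cd36 had a slope of -0.04 ± 0.09 (adjusted p = 0.823). With the score in the fit, the members called at 3, 10 and 30 µg/kg against vehicle numbered 0, 0 and 1, as without it.

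Of the wider list described next, 16 of 45 genes had a slope at an adjusted p under 0.05 in this fit, against 10.7% of all genes. Of these, 13 were higher and 3 lower, against 6.03% and 4.64% of all genes. Dgat2, the second enzyme able to complete triacylglycerol, was between 396 and 541 CPM in the 6 positive libraries and between 144 and 202 CPM in the 6 negative ones, a slope of 0.76 ± 0.07 (adjusted p = 5.86e-06). Ppara, a fatty acid sensing receptor picked here after its values were seen, was between 44.0 and 84.3 CPM against 19.6 and 34.3 CPM. Acsl5, which activates fatty acids to acyl-CoA, had a slope of 0.31 ± 0.04 (adjusted p = 0.000232). Dgat1 had 0.08 ± 0.04 (adjusted p = 0.201), and the difference between the slopes of Dgat2 and Dgat1 was not tested.

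**Figure D4:**
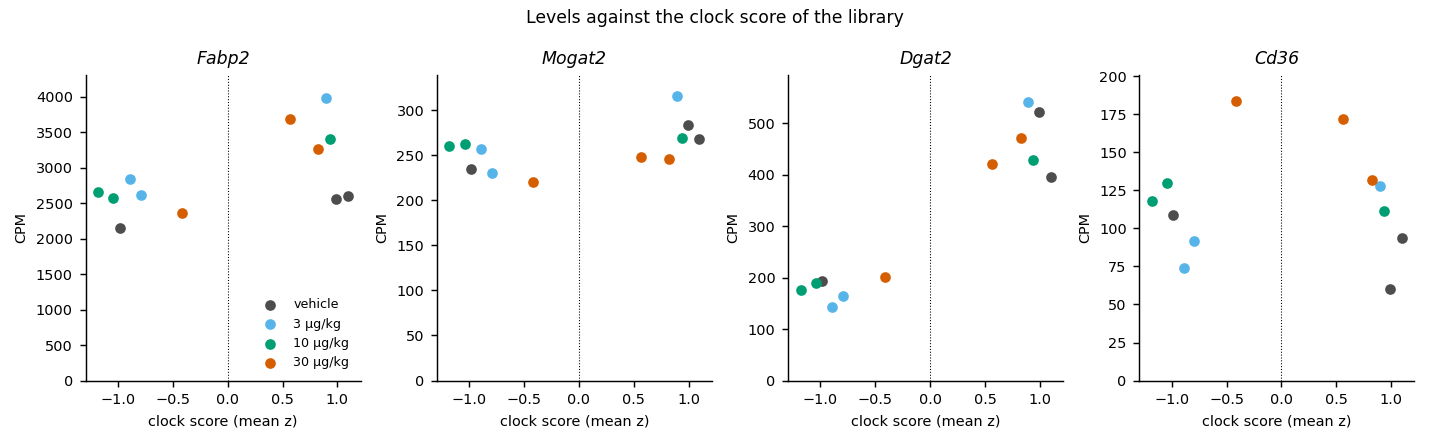
CPM of Fabp2, Mogat2, Dgat2 and Cd36 (vertical axes, from 0) is plotted against the clock score of each of the 12 libraries (horizontal axis, mean of SD units), coloured by dose. Dgat2 falls into a low set (144 to 202) and a high set (396 to 541) on the 2 sides of 0 at every dose, and Cd36 does not.

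A wider list held 48 genes of fat absorption, of which 45 were tested. It covered fatty acid uptake and activation, glycerolipid synthesis, lipid droplets, chylomicron packaging and export, other lipoprotein components, cholesterol absorption and transcriptional regulators. At 3 µg/kg 0 of 45 were called, against 0.228% of all genes, and 1 had an unadjusted p under 0.05, against 11.4%. At 10 µg/kg 0 of 45 were called, against 0.613%, and 5 had an unadjusted p under 0.05, against 15.9%. DESeq2 called none of the 45 at either dose. At 30 µg/kg 1 was called, against 3.97% of all genes, and 2 in the trend, against 3.29%. The median log2 change at 30 µg/kg was -0.05, with 17 positive and 28 negative.

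Dbi, the acyl-CoA binding protein, was the gene called at 30 µg/kg. It stood at 230, 193 and 186 CPM in vehicle, 180, 202 and 202 at 3, 169, 204 and 242 at 10, and 321, 304 and 333 at 30 µg/kg, where every library exceeded all 9 others. Its log2 change at 30 µg/kg was 0.65 ± 0.13, 1.57-fold (edgeR adjusted p = 0.00910), and in the trend 0.62 ± 0.16 (adjusted p = 0.0456). After removal of the length and GC trend the estimate was 0.50 for 30 µg/kg (adjusted p = 0.0343), under the 1.5-fold limit. The trend call of Dbi was lost with the library index, a barcode that occurs once in each group, in the fit (adjusted p = 0.0882) and in 9 of the 12 fits that left out 1 library (adjusted p up to 0.154), all but those without vehicle replicate 1 or replicate 1 or 2 of 10 µg/kg.

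Abca1, which exports cholesterol to apolipoprotein A-I, was called lower in the trend over dose, a call that did not hold in every fit. It stood at 201, 254 and 225 CPM in vehicle, 288, 130 and 184 at 3, 172, 102 and 124 at 10, and 86.0, 157 and 100 at 30 µg/kg, where all libraries were below vehicle. The trend was -1.07 ± 0.26 over the dose range (edgeR adjusted p = 0.0305), a 2.10-fold decrease, and the change at 30 µg/kg was -0.99 ± 0.29 (adjusted p = 0.0618). The trend call was lost with the library index in the fit (adjusted p = 0.0568), and without vehicle replicate 2 (adjusted p = 0.0775) or 3 (0.0584), or replicate 1 (0.104) or 3 (0.101) of 30 µg/kg. Gpat3, which starts glycerolipid synthesis and is named after its values were seen, was 145, 179 and 176 CPM in vehicle and 126, 113 and 113 at 30 µg/kg. Its change there, -0.51 ± 0.12 (adjusted p = 0.0296), passed the p threshold but not 1.5-fold.

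For the most abundant genes of each role that were not called, the changes at 30 µg/kg were as follows. Among uptake and activation genes Slc27a4, a fatty acid transport protein, changed by 0.05 ± 0.11 and Acsl5 by -0.26 ± 0.23. Among lipid droplet genes Plin3 and Cideb changed by -0.05 ± 0.10 and -0.03 ± 0.09. Among export genes P4hb, the partner subunit of Mttp, changed by -0.03 ± 0.12 and Surf4, a cargo receptor, by -0.14 ± 0.08. Of the lipoprotein components, Apoc2, the cofactor of lipoprotein lipase, changed by 0.04 ± 0.21. Apoa2 changed by 0.68, the largest positive change of the 45, but averaged only 0.629 CPM over the libraries.

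In glycerolipid synthesis Dgat2 changed by -0.02 ± 0.53 and Lpcat3 by -0.08 ± 0.11. In cholesterol absorption Npc1l1, the brush border sterol transporter, changed by -0.31 ± 0.13 (edgeR adjusted p = 0.178) and Abcg5, a subunit of the pump that returns sterols to the lumen, by -0.27 ± 0.14 (adjusted p = 0.280). The regulators Hnf4a and Hnf4g, nuclear receptors of enterocyte identity, changed by -0.08 ± 0.12 and 0.16 ± 0.09. None of these had an adjusted p under 0.05.

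**Figure D5:**
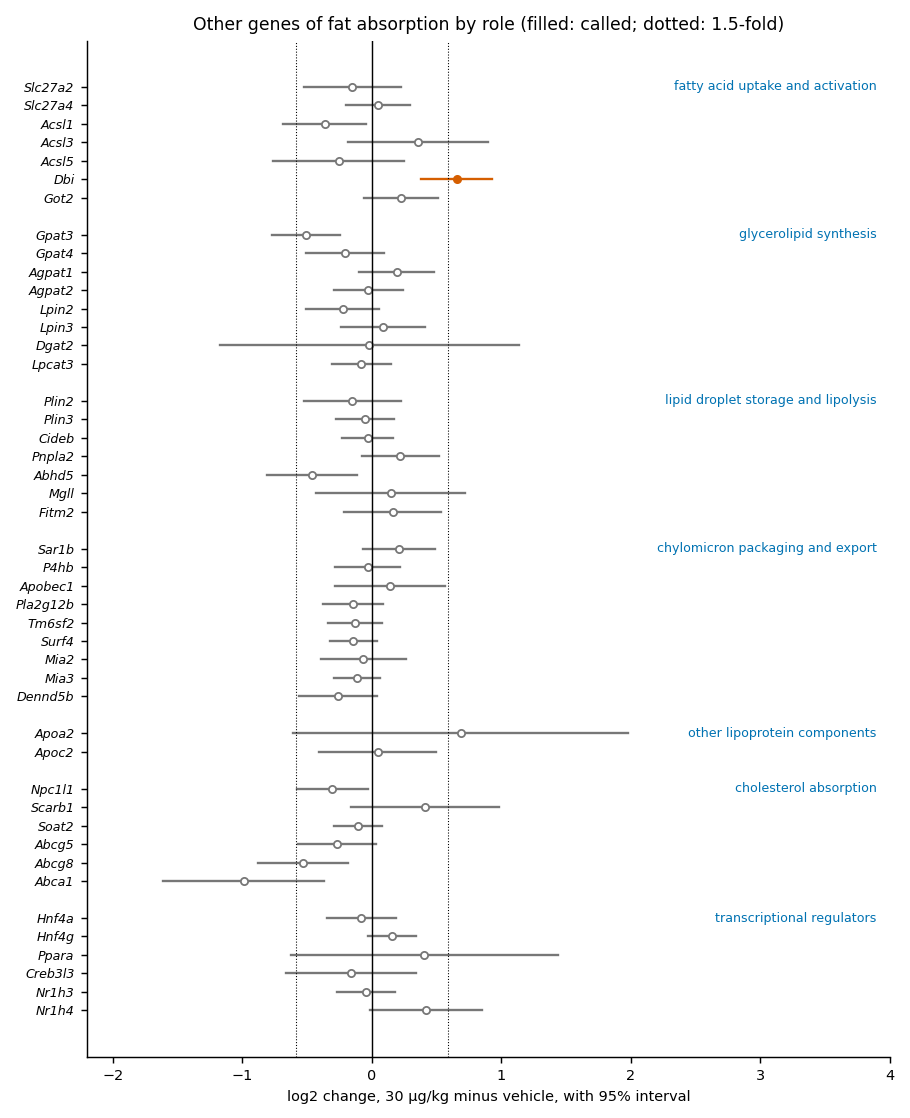
The log2 change at 30 µg/kg against vehicle with its 95% interval (horizontal axis) is plotted for the 45 tested genes of the wider list, grouped by role, with dotted lines at 1.5-fold. Dbi, at 0.65, is the 1 filled (called) point, and Abca1 at -0.99 is the lowest.

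The members also differed in how they varied over the 12 libraries. Cd36 had the largest SD of log2 CPM, 0.46, followed by Apoc3 with 0.39 and Apoa1 with 0.35. After each profile was centred on its mean, the closest pairs were Mogat2 with Dgat1 and Mogat2 with Mttp, whose root mean square differences were 0.11 and 0.12 on the log2 scale. Apoa1 with Apoc3 (0.18) and Fabp1 with Fabp2 (0.19) came next. Among the other genes, the closest to Cd36 were Med29, a Mediator subunit, Borcs8, a subunit of a lysosome positioning complex, and Gm20768, with differences between 0.20 and 0.22 against a median of 0.52 over all genes tested. The closest to Apoc3 were Peg13, an imprinted noncoding RNA, Acd, a telomere protein, and Gm21811, with differences between 0.13 and 0.16 against a median of 0.46.

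Fabp2, Mogat2, Mttp and Apoa4 overlap genes annotated on the opposite strand. The strand setting of the counting is not given in the sources used here, so reads from those partners could not be told apart from theirs.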

How the data were processed

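Per Ensembl gene, the authors deposited raw, unnormalized read counts, each library in its own file. The submitters' processing notes name GRCm38, FastQC 0.11.3, Trimmomatic 0.33, TopHat2 2.1.0, SAMtools 1.2.0, HTSeq 0.6.1 and DESeq. Entries that name no gene held 60.3% to 64.6% of each file's total and were left out. Symbols, positions and exon lengths came from GENCODE M21, which matched 45229 of 46078 identifiers.

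The fit used edgeR 4.0.16 (R 4.3.3): filterByExpr, TMM scaling and 1 quasi-likelihood fit of 4 groups to 12 libraries, with standard errors derived from the F statistic. The trend used dose rank 0 to 3. Log2 CPM used a prior count of 2. Alternatives were other scalings, other filters on low counts, DESeq2 1.42.0, limma-voom (limma 3.58.1), library index or clock score as covariate, a length and GC correction, the compared groups alone, and leaving out each library. The scripts were tested on simulated data.

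The members and lists were chosen with earlier results of these data known. Named were all 10 members and, of the wider list, each called gene and up to 2 uncalled genes per role with the highest mean CPM. Also named were the 3 genes closest in profile to the 2 members that varied most. Genes outside this rule are said to be chosen after their values were seen. The labels give no replicate numbers, so these follow accession order, and p-values measure the spread between libraries whose animals are not identified. Replicates of a group differed by more than counting noise, with chi-square per degree of freedom between 10.6 and 48.0. Counting limits cover counting error only, because reads carry no molecular identifiers.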

Additional observations from a re-analysis of the deposited data

How the results depend on the processing

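Most of the calls described were lost when certain single libraries were left out, the call of Dbi at 30 µg/kg being the exception. Results for the 10 members were recomputed under 11 other settings and without each of the 12 libraries. Cd36 was called at 30 µg/kg under all 11 settings on full data, with a log2 change between 0.88 and 0.95 and adjusted p-values between 0.00188 and 0.0465. The cause of the changes below was not tested. No paired analysis was possible by replicate number, because the labels carry none. Each of the 3 library index sequences occurs once in every group, however, and a fit with the index as a block was made. It changed no call of a member, and of the wider list it removed the trend calls of Dbi and Abca1 (adjusted p = 0.0882 and 0.0568). Over all genes that block gave 18 calls in place of 36 at 3 µg/kg, 59 in place of 97 at 10 µg/kg and 482 in place of 628 at 30 µg/kg.

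At 10 µg/kg against vehicle the count of members called was 1 in place of 0 without a filter on low counts and with DESeq2. Between 10 and 30 µg/kg it was 2 in place of 1 without the filter, with DESeq2 and with the compared groups alone, where Apoa1 joined Apoc3, and 0 with the length and GC trend removed. The count of wider genes called at 30 µg/kg was 2 in place of 1 without the filter, with DESeq2, with limma-voom, with the clock score and with the compared groups alone, and 0 with the length and GC trend removed. In the trend it was 1 in place of 2 with upper-quartile scaling, limma-voom or the length and GC trend removed, and 0 with the library index. Members with a clock score slope, a test and alternatives chosen after seeing the data, numbered 2 in place of 1 with upper-quartile scaling, without the filter and with at least 10 counts in every library. Leaving out 1 library gave 0 to 1 members at 30 µg/kg, 0 to 2 between 10 and 30 µg/kg, 0 to 1 in the trend and 1 to 2 with a clock slope. Of the wider list it gave 1 to 3 at 30 µg/kg and 0 to 3 in the trend.

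Values that changed sign were near 0 and none was called. With upper-quartile scaling and with at least 10 counts in every library, Mogat2 gave -0.0061 and -0.0056 at 3 µg/kg and -0.013 and -0.0012 at 10 µg/kg, and Fabp1 gave 0.0012 and 0.0072 between 10 and 30 µg/kg. Between 3 and 10 µg/kg Mogat2 gave 0.0053 with TMM without genes over 1% of a library, 0.0043 with at least 10 counts, 0.010 with the clock score and 0.0045 with the compared groups alone. With the clock score, Apob gave -0.018 at 10 µg/kg, and between 10 and 30 µg/kg Fabp2 gave -0.063, Dgat1 -0.045 and Apoa4 0.0017. With the length and GC trend removed, Apob gave 0.016 at 30 µg/kg, 0.026 between 3 and 10 µg/kg and 0.022 in the trend. That setting also gave -0.076 for Apoc3 at 30 µg/kg, -0.10 for Apoc3 in the trend and -0.11 for Dgat1 between 10 and 30 µg/kg.

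Leaving out 1 library moved the log2 change across 0 for the following. At 3 µg/kg Cd36 ranged from -0.082 to 0.33, Mogat2 from -0.11 to 0.13 and Apob from -0.061 to 0.31. At 10 µg/kg Mogat2 ranged from -0.053 to 0.076 and Apob from -0.063 to 0.31, and at 30 µg/kg Apob from -0.21 to 0.16. Between 3 and 10 µg/kg Fabp1 ranged from -0.057 to 0.25, Fabp2 from -0.26 to 0.089, Mogat2 from -0.11 to 0.13, Dgat1 from -0.15 to 0.085, Apob from -0.080 to 0.081, Apoa1 from -0.29 to 0.15, Apoa4 from -0.15 to 0.18 and Apoc3 from -0.23 to 0.039. Between 10 and 30 µg/kg Fabp1 ranged from -0.088 to 0.15, Fabp2 from -0.037 to 0.27, Dgat1 from -0.015 to 0.042 and Apoa4 from -0.25 to 0.18. In the trend Apob ranged from -0.20 to 0.089 and Apoc3 from -0.094 to 0.38.

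Over all genes tested, the 36 calls at 3 µg/kg ranged from 6 with the compared groups alone to 162 without 3 µg/kg replicate 1. The 97 calls at 10 µg/kg ranged from 45 to 262, the 628 at 30 µg/kg from 433 to 873, the 25 between 3 and 10 µg/kg from 9 to 43, the 439 between 10 and 30 µg/kg from 188 to 607, and the 520 in the trend from 297 to 722.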
